A study of Mus musculus with 288 samples.

Results

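The vascular endothelial growth factor (VEGF) family was followed through 6 mouse tissues after intermittent hypoxia (IH). Its 10 genes are the 5 ligands Vegfa, Vegfb, Vegfc, Vegfd and Pgf, the 3 receptor tyrosine kinases Flt1, Kdr and Flt4, and the co-receptors Nrp1 and Nrp2. They were chosen by name, are 10 of the 35904 genes in the expression tables, and all 10 were found. Libraries came from the lung, heart, muscle, kidney, liver and cerebellum of wild-type male C57BL/6J mice, 8 weeks old. Mice were kept for 7 days in normoxia or under IH, in which inspired oxygen fell and recovered in rapid cycles during the light phase. Both groups were then released into constant darkness in normal air for 2 days, and tissues were taken on the second of these days at 8 time points 3 h apart, from 1:30 to 22:30. With 3 replicates at each time point, each of the 12 combinations of tissue and treatment holds 24 libraries. The values therefore describe tissue after IH had ended, not during it. Several organs came from each mouse, and which libraries share a mouse cannot be told from the labels.

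VEGF ligands are secreted by parenchymal and stromal cells and act chiefly on the endothelium. Vegfa, made by alveolar epithelium, cardiomyocytes, podocytes and many other cells, drives vessel growth, endothelial survival and permeability through Kdr (VEGFR2), the main signalling receptor of blood endothelium. Flt1 (VEGFR1) binds Vegfa tightly but signals weakly, binds Vegfb and Pgf too, and is also made as a soluble form that traps ligand. Vegfc and Vegfd act through Flt4 (VEGFR3), the receptor of lymphatic endothelium, and Nrp1 and Nrp2 hold VEGF next to the receptors while also serving as semaphorin receptors. Vegfa transcription is a textbook target of the hypoxia-inducible factors (HIF), which bind the core letters ACGTG or GCGTG.

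Values are in TPM, a unit that sets each gene's reads per transcript length and against the rest of its library, so that levels of different genes can be compared. Changes between treatments were tested on TPM scaled within a tissue by the median of ratios, and TPM as deposited is given beside them, because in the lung the scaling moved the median log2 change of all genes from 0.21 to -0.076. The corresponding medians were 0.15 and 0.037 in the heart, and -0.12 and -0.007 in the liver. A gene listed above 0 TPM was counted as detected: 22694 genes on average per normoxic lung library and 25455 per IH lung library, against 25124 and 21447 in the heart. Defining markers of each labelled tissue were high in it, such as summed hepatocyte markers at 54430.5 TPM (median) in normoxic liver. In cerebellum libraries the hepatocyte markers (Alb, Apoa1, Cyp2e1, Ttr and Serpina1a) summed to a median of 3031 TPM in normoxia and 2389 TPM after IH. Cerebellar neuron markers summed to 3054 and 3423 TPM there. Only the sum was taken, so which of these hepatocyte markers carried it is not shown, and its source was not tested. Cardiomyocyte markers summed to a median of 601 TPM (highest 2474) in normoxic cerebellum and 346 TPM (highest 5592) after IH. Skeletal muscle fibre markers had medians of 84.8 and 62.8 TPM there and reached 5774 and 1487 TPM. The lowest sums of cerebellar neuron markers were 1224 and 294 TPM. The part of other tissues in the cerebellar VEGF levels was not tested. 1 IH liver library, replicate 2 at 13:30, held cardiomyocyte markers at 5044 TPM, where the normoxic liver libraries reached at most 37.4 TPM. Across IH livers these markers had a median of 24.2 TPM against 8.72 in normoxia, and kidney tubule markers 82.4 against 3.36 TPM. In bulk tissue, fewer cells of a type and less RNA per cell cannot be told apart.

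The sequence before the start of the 3 genes on which the lung and heart results turn is shown so that their upstream letters can be compared. RefSeq promoter windows on GRCm38.p6 matched all 10 genes, with 12 windows since Pgf and Vegfa have 2 starts each, and the 250 bases before each start were searched on both strands. Capitals mark the HIF core ACGTG or GCGTG and the GC box GGGCGG, or their reverse complements, and 2 such matches may overlap. The windows lie at chr17:46032378-46032627, minus strand, for Vegfa, at chr5:75978456-75978705, minus strand, for Kdr, and at chr5:147726012-147726261, minus strand, for Flt1.
Vegfa: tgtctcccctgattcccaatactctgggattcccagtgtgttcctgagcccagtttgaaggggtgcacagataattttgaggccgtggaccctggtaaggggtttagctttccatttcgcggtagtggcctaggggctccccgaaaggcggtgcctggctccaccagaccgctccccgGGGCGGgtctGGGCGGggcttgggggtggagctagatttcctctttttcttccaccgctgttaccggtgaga
Kdr: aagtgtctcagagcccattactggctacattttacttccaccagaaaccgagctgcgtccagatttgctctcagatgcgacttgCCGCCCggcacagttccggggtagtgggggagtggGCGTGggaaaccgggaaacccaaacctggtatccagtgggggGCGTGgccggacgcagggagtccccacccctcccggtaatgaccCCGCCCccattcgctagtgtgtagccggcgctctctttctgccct
Flt1: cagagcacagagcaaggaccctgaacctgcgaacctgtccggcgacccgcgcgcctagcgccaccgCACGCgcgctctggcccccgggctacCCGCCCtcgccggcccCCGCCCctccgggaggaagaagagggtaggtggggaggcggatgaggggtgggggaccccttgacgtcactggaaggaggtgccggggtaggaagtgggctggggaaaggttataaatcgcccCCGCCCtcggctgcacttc

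Vegfa held 0 HIF cores in this window and 2 GC boxes, Kdr held 2 cores and 2 boxes, and Flt1 held 1 core and 3 boxes. A HIF core was found before at least 1 start of 7 of the 10 genes (Vegfa, whose second and internal start has 2, Vegfb, Pgf, Flt1, Kdr, Nrp1 and Nrp2), that is in 7 of the 12 windows, and in 38.6% of all 32851 RefSeq windows of the same length. GGGCGG was present in 32.7% of all windows and in 10 of the 12 windows of the family. Such matches describe letters only, and the well-studied hypoxia-response element of Vegfa lies farther upstream than this window. The genes themselves lie at chr17:46016993-46032369 (Vegfa), chr5:75932827-75978458 (Kdr) and chr5:147561604-147726011 (Flt1) in the GENCODE annotation of GRCm38. The deposited values sum all transcripts of a gene, so soluble and membrane-bound Flt1, or the Vegfa isoforms, cannot be told apart.

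Among the ligands in normoxia, Vegfa was highest in the lung and Vegfb in the heart. Lung libraries held 459 ± 67.1 TPM of Vegfa (SD, n = 24, as for every mean given below without another n), followed by muscle with 108 ± 18.7, heart with 105 ± 45.0, kidney with 95.5 ± 34.6, liver with 68.3 ± 23.5 and cerebellum with 27.6 ± 9.36 TPM. Vegfb, whose product binds Flt1 and is known from heart and muscle, had the order heart (287.5 ± 47.9 TPM), muscle (159.8 ± 21.0), cerebellum (89.5 ± 13.1), kidney (50.9 ± 5.90), lung (36.4 ± 4.40) and liver (21.5 ± 4.12). In each lung library, Vegfa made up 83.4% to 89.7% of the summed TPM of the 5 ligands, against 16.2% to 45.2% in the heart, where Vegfb made up 52.3% to 82.1%. These ranges of Vegfa do not overlap. In the cerebellum, too, Vegfb was the larger part, with 72.0% ± 4.20.

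The lymphatic ligands and placental growth factor were lower in all 6 tissues than Vegfa. Vegfc had 12.2 ± 2.54 TPM in the lung, 3.85 ± 0.951 in the heart, 2.51 ± 0.638 in muscle, 2.48 ± 0.509 in the cerebellum, 1.52 ± 0.326 in the kidney and 1.27 ± 0.344 in the liver. Vegfd stood out in the lung at 24.3 ± 4.54 TPM, followed by muscle (4.81 ± 1.13), kidney (3.74 ± 0.606), heart (1.93 ± 0.497), cerebellum (1.34 ± 1.47) and liver (0.753 ± 0.260). Pgf, the placental ligand that binds Flt1, lay between 2.44 and 3.95 TPM on average in muscle, lung, cerebellum and heart. Its mean was 0.462 TPM in the kidney and 0.0388 TPM in the liver, where 2 normoxic libraries listed it at 0.

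All 3 receptors and both co-receptors had their highest TPM in the lung, the tissue in which the 15 pan-endothelial markers also summed highest, at a median of 3658 TPM against 644 in the heart and 99.6 in the liver. Kdr fell in the order lung (112 ± 22.7 TPM), heart (30.2 ± 12.5), muscle (22.6 ± 8.11), kidney (10.6 ± 2.75), liver (7.30 ± 2.54) and cerebellum (4.16 ± 2.27). Flt1 had 70.4 ± 14.7 TPM in the lung, 26.5 ± 7.25 in muscle, 21.6 ± 7.09 in the heart, 12.6 ± 2.73 in the cerebellum, 7.99 ± 2.01 in the kidney and 2.00 ± 0.668 in the liver. Set against each other, the receptors were not in a fixed proportion. The ratio of Flt1 to Kdr within a library ran from 1.59 to 5.49 (median 3.67) in the cerebellum and from 0.222 to 0.411 (median 0.275) in the liver, so that every cerebellum library had more Flt1 than Kdr and every liver library had less.

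Flt4 reached 14.9 ± 4.81 TPM in the lung and 3.51 ± 1.66 in the liver, 3.35 ± 1.07 in the heart, 3.23 ± 0.908 in muscle, 1.40 ± 0.435 in the kidney and 0.894 ± 0.359 in the cerebellum. Relative to the mean log2 level of the 15 pan-endothelial markers in the same library, Flt4 was least low in the liver, at -0.53 ± 0.36, and between -3.37 and -2.59 on average in the other 5 tissues. Sinusoidal endothelium of the liver is known to carry this lymphatic receptor. On the same relative scale Nrp1 was at 1.82 ± 0.35 in the liver and at -0.53 ± 0.27 in the lung, although its TPM was 18.9 ± 4.67 in the liver and 109 ± 30.1 in the lung. Nrp1 had 27.4 ± 7.67 TPM in muscle, 25.6 ± 9.75 in the heart, 15.3 ± 4.10 in the kidney and 3.83 ± 2.03 in the cerebellum. Nrp2 had 11.9 ± 2.32 TPM in the lung, 7.01 ± 2.58 in the heart, 6.74 ± 1.81 in muscle, 3.11 ± 0.854 in the kidney, 2.47 ± 0.877 in the cerebellum and 1.85 ± 0.934 in the liver.

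**Figure D1:**
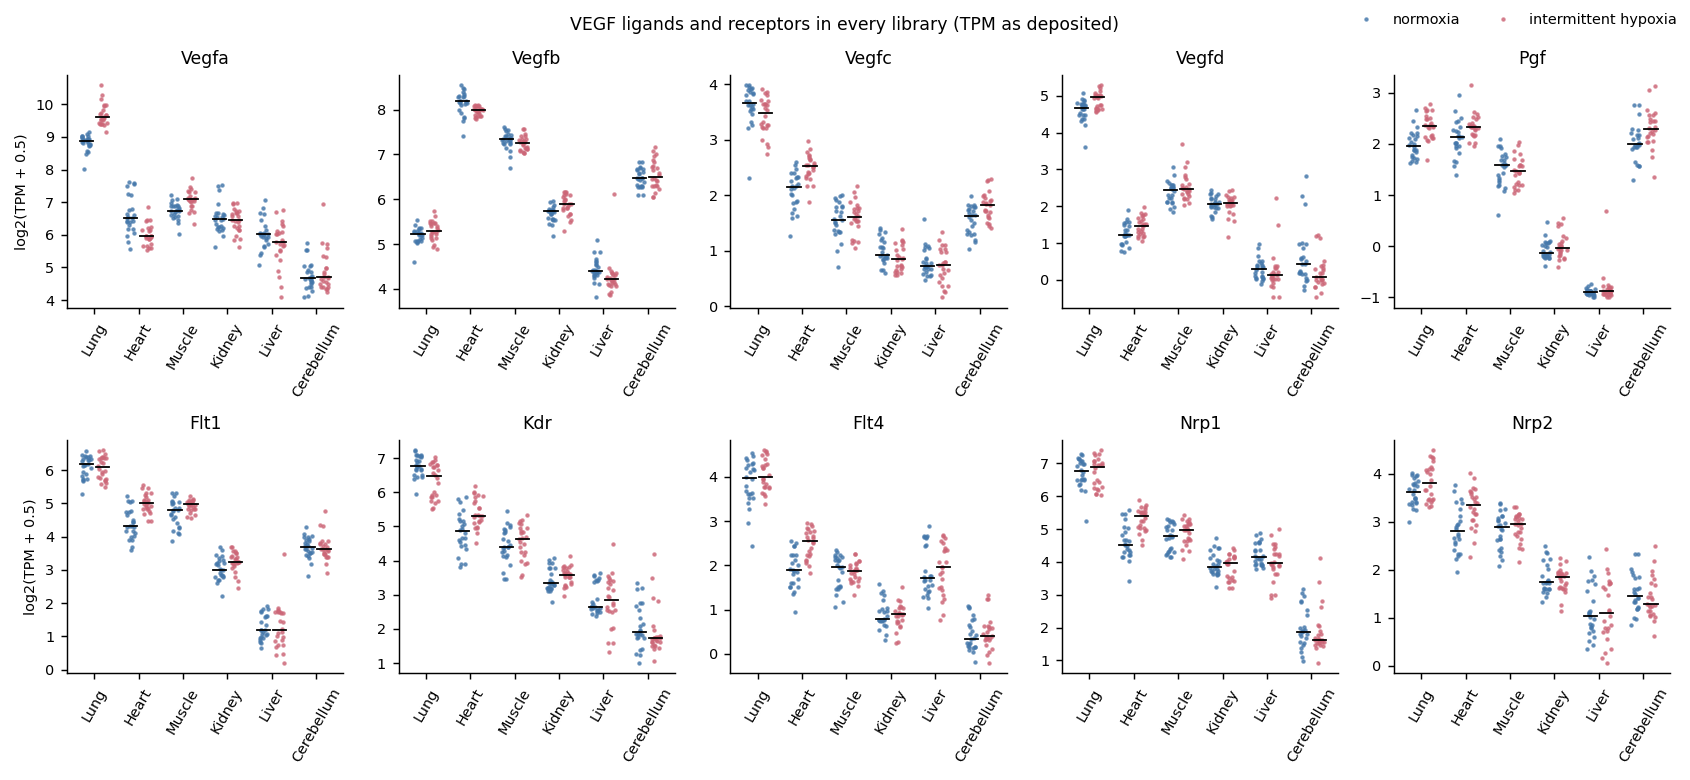
Level of each VEGF gene in every library as log2(TPM + 0.5), TPM as deposited, by tissue, with normoxia in blue, IH in red and a black bar at the median of 24 libraries. Vegfa, Vegfc, Vegfd, the receptors and the co-receptors are highest in the lung, and Vegfb in the heart.

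The orders above were tested between neighbouring tissues with limma over all normoxic libraries, in which 82.3% of all comparisons of a gene between 2 tissues passed an adjusted p of 0.05. Of the 50 neighbouring pairs of the 10 genes, 38 differed in the direction of the TPM order on scaled values, 41 on TPM as deposited and 31 on both scales. The scaling across tissues moved their levels against each other: the median log2 factor was 0.76 in the lung and -0.80 in the liver. The lead of the lung over the next tissue passed on both scales for Vegfa, Vegfc, Vegfd, Flt1, Kdr, Flt4 and Nrp1, and that of the heart passed for Vegfb. The Flt4 lead did not pass under at least 1 other setting (adjusted p up to 0.094), whereas the other leads named here passed under all. For Nrp2 the scaled test put the heart above the lung (log2 difference of lung minus heart -0.37, adjusted p = 0.00058), whereas TPM as deposited put the lung first (0.77). In all, 7 of the 50 pairs passed against the TPM order on scaled values. The other 6 were Vegfa in kidney minus liver (-0.32), Vegfb in lung minus liver (-0.73), Vegfc in kidney minus liver (-0.42), Vegfd in cerebellum minus liver (-0.44), Pgf in lung minus muscle (-0.27) and Nrp2 in cerebellum minus liver (-0.56). Vegfa in muscle and heart, and Nrp1 in muscle and heart, did not differ beyond the spread on either scale. Heart and kidney Vegfa, and the Pgf levels of heart, cerebellum and lung, differed only after scaling.

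In the lung, 6 of the 10 members changed after IH at an adjusted p of 0.05, where 70.4% of all genes tested did. Vegfa rose and Kdr, Vegfc, Flt1, Nrp1 and Vegfb fell on the scaled values. The direction of Nrp1 and Vegfb turned on TPM as deposited. That of all 5 that fell turned once each library's count of detected genes entered the model as a covariate, though Kdr (0.068, adjusted p = 0.60) and Vegfc (0.088, adjusted p = 0.50) did not pass. This count ran from 21746 to 25400 in normoxic lung libraries and from 23622 to 28284 after IH. As it moved with treatment, with overlapping ranges, the covariate can only partly be told apart from treatment in the lung. With that covariate Nrp1 (0.59), Flt1 (0.26) and Vegfb (0.16) passed as higher, as did Flt4 (0.61) and Nrp2 (0.49). The shares of all genes that passed with the covariate, or on TPM as deposited, are not given for any tissue. On scaled values without the covariate, genes that were lower made up 41.5% of all genes tested and genes that were higher 28.9%. A fold of 1.5 was also passed by Kdr alone, against 13.5% of all genes, whereas on TPM as deposited Vegfa alone passed it.

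Vegfa, the principal ligand, was the clearest member. The 24 normoxic lung libraries held 261 to 564 TPM (median 473) and the 24 IH libraries 567 to 1536 TPM (median 774), so that every IH library lay above every normoxic one on TPM as deposited. After scaling, 19 of 24 IH libraries lay above the highest normoxic library and all 24 above the normoxic median. The mean rose from 459 ± 67.1 to 846 ± 219 TPM, which was a 1.47-fold increase on the scaled values (log2 change 0.55, SE 0.068, adjusted p = 1e-09, limma). At all 8 time points the 3 IH libraries were above the 3 normoxic ones. The share of all genes whose groups were apart in these ways is not given, here or for the counts of libraries below. On TPM as deposited the median log2 change of all lung genes was 0.21. The Vegfa increase was present within each replicate number, at 0.73, 0.63 and 0.28 for replicates 1, 2 and 3. It was also present on TPM as deposited (0.86) and with the covariate (0.28, adjusted p = 0.01). The ratio of Vegfa to Vegfb within a library, which no scaling touches, ran from 10.5 to 17.0 (median 12.2) in normoxia and from 12.7 to 50.9 (median 19.4) after IH.

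Kdr, the receptor through which Vegfa chiefly signals, moved the other way. Normoxic lungs held 61.2 to 149 TPM (median 109) and IH lungs 45.5 to 130.3 TPM (median 88.1), with 9 of 24 IH libraries below the lowest normoxic one. On scaled values all 24 IH libraries were below the normoxic median (log2 change -0.76, SE 0.12, adjusted p = 1.4e-07), and on TPM as deposited the change was -0.45 (adjusted p = 0.00075). Replicate numbers differed in its size, at -1.23, -0.91 and -0.17, and with the covariate it was 0.068 (adjusted p = 0.60). The ratio of Vegfa to Kdr within a library ran from 3.11 to 6.56 (median 3.95) in normoxia and from 5.60 to 28.8 (median 7.92) after IH. This ratio was higher in the IH group, with a small overlap of both ranges.

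**Figure D2:**
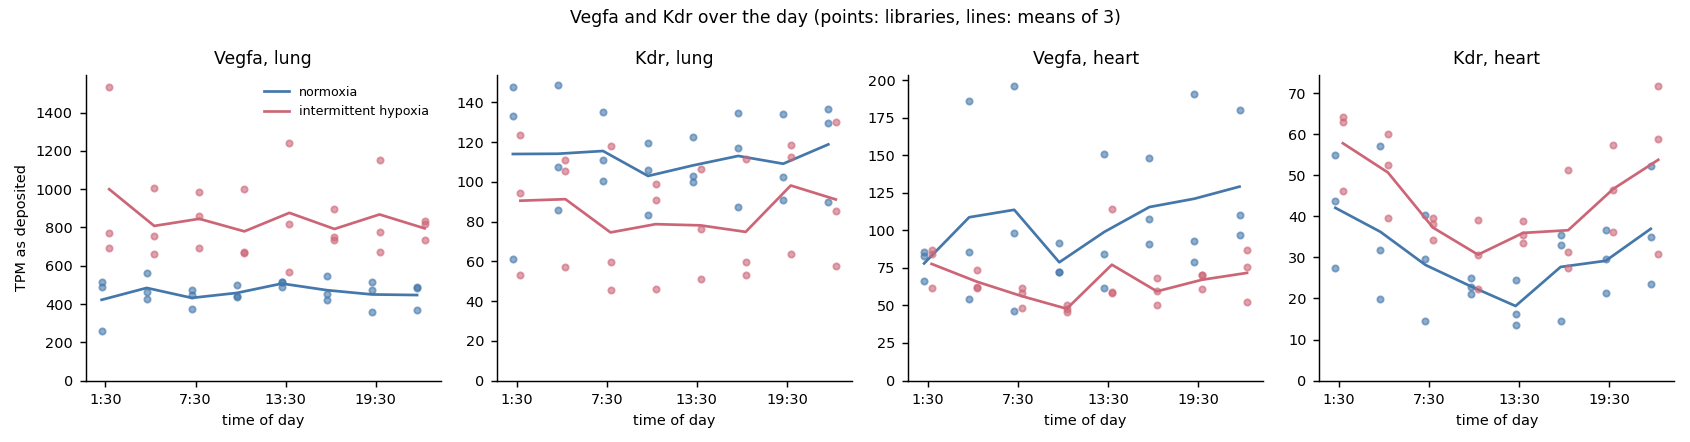
TPM as deposited of Vegfa and Kdr in the lung and heart against the time of day, with each library as a point, the mean of 3 as a line, normoxia in blue and IH in red. Lung Vegfa after IH lies above normoxia at all 8 time points, and the mean of heart Vegfa lies lower at all 8.

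The other lung members depended more on the scale and the replicate. Vegfc had 4.44 to 15.3 TPM (median 12.2) in normoxia and 6.16 to 14.6 TPM (median 10.7) after IH, with overlapping groups. It fell within each replicate number (-0.66, -0.52 and -0.32) and overall (log2 change -0.49, SE 0.094, adjusted p = 1.2e-05), with -0.20 on TPM as deposited (adjusted p = 0.069) and 0.088 with the covariate. Flt1, the decoy-like receptor, had nearly equal TPM of 70.4 ± 14.7 and 68.5 ± 16.1. Its scaled change (log2 change -0.35, SE 0.089, adjusted p = 0.0006) had replicate values of -0.75, -0.46 and 0.14, and its value was -0.045 on TPM as deposited (adjusted p = 0.69). Leaving out replicate 1 ended the Flt1 call, at -0.15. Within a library the ratio of Flt1 to Kdr ran from 0.484 to 0.809 (median 0.618) in normoxia and from 0.555 to 1.11 (median 0.862) after IH, which puts Kdr lower relative to Flt1 after IH, with overlapping groups. Nrp1 (log2 change -0.28, SE 0.12, adjusted p = 0.034) had 0.022 on TPM as deposited and replicate values of -0.89, -0.36 and 0.37, of which the third differs in sign. It did not pass without replicate 1 (0.016), without replicate 2 (-0.26) or without 1 IH library, replicate 2 at 1:30 (-0.24). Vegfb (log2 change -0.19, SE 0.056, adjusted p = 0.0029) had 0.11 on TPM as deposited and -0.28, -0.36 and 0.047 by replicate number, and it did not pass without replicate 1 or without replicate 2. Vegfd, Pgf, Flt4 and Nrp2 did not pass, with scaled changes of -0.011, 0.09, -0.10 and -0.067. On TPM as deposited Vegfd, Pgf and Nrp2 passed as higher, at 0.29, 0.36 and 0.22.

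Of the 15 pan-endothelial markers, 12 were lower and 1 was higher, with a median log2 change of -0.53 against -0.076 for all genes tested. On TPM as deposited 8 were lower and 2 higher, with a median of -0.23 against 0.21 for all genes. For this and the following lists, the share of all genes that passed on TPM as deposited is not given. Lists of lung and heart were not fitted with the count of detected genes as a covariate. Cdh5, the cadherin of endothelial junctions, went from 304 ± 80.9 to 228 ± 84.8 TPM, log2 change -0.77, and Cldn5, a tight-junction claudin, from 605 ± 79.0 to 469 ± 118 TPM, log2 change -0.70. The summed level of the 15 markers ran from 2167 to 4192 (median 3658) TPM in normoxia and from 2517 to 3909 (median 3362) TPM after IH, none of the markers was at 0 in all libraries, and the part of endothelial content in the Kdr change was not tested. Relative to those markers in the same library, Kdr was at -0.46 ± 0.17 in normoxia and -0.78 ± 0.35 after IH on the log2 scale, and Flt1 at -1.13 ± 0.19 and -1.03 ± 0.20.

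Among 10 genes that endothelial cells are known to switch on in answer to VEGF, 8 were lower and 0 higher (median -0.42), and on TPM as deposited 3 were lower and 2 higher. Esm1, a tip-cell proteoglycan, went from 23.9 ± 5.95 to 15.1 ± 5.88 TPM, log2 change -0.99, and Apln, the apelin peptide, from 27.5 ± 7.38 to 18.2 ± 5.34 TPM, log2 change -0.88. The 22 genes of VEGF receptor signalling counted 16 lower and 2 higher (median -0.19), but 2 lower and 5 higher on TPM as deposited (median 0.098), so that the balance turned. Among those lower on scaled values was Hspb1, a small heat-shock protein (313 ± 156 to 302 ± 183 TPM, log2 change -0.50). All 4 angiopoietin and TIE genes tested were lower, among them Tek, the angiopoietin receptor (132 ± 26.5 to 119 ± 27.1 TPM, log2 change -0.46), and on TPM as deposited 0 were. Of 10 other HIF targets 6 were lower and 2 higher, and on TPM as deposited 4 were lower and 3 higher. Slc2a1, the glucose transporter GLUT1, went from 17.0 ± 1.45 to 13.6 ± 4.86 TPM, log2 change -0.69, whereas Car9, a carbonic anhydrase, went from 4.00 ± 0.903 to 7.85 ± 2.20 TPM, log2 change 0.60. Of 8 regulators of VEGF expression and processing 3 were higher and 2 lower (median 0.13), and on TPM as deposited 5 were higher and 0 lower (median 0.43). Among the lower was Epas1, which encodes HIF-2 alpha, from 1002 ± 226 to 877 ± 271 TPM, log2 change -0.53. Alveolar type 1 cells are a main source of Vegfa, and 4 of 5 markers of them were lower, such as Ager (2153 ± 291 to 1559 ± 611 TPM, log2 change -0.88), as were all 5 alveolar type 2 markers. Their summed TPM ran from 2213 to 4496 in normoxia and from 1518 to 4146 after IH for type 1, and from 33327 to 49347 and from 14422 to 46751 for type 2. Markers of cardiomyocytes, 2 of 5 higher, summed to a median of 322 TPM in normoxic and 547 TPM in IH lungs, and their part in the lung changes was not tested.

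In the heart Vegfa and Vegfb fell while Flt1, Flt4, Kdr, Nrp1, Nrp2 and Vegfc rose, with 8 of 10 genes past the threshold against 45.2% of all genes tested. Higher genes made up 28.0% of all genes and lower genes 17.3%. Of the 8, only Vegfa also passed a fold of 1.5, against 2.95% of all genes, while on TPM as deposited Flt1 (0.62), Flt4 (0.60) and Nrp1 (0.68) did so too. With the count of detected genes as a covariate, only Vegfa kept its call. Vegfb had -0.33 there (adjusted p = 0.31), Flt1 had 0.045, and Kdr, Flt4, Nrp1, Nrp2 and Vegfc turned in direction. The count of detected genes ran from 22988 to 28331 in normoxic heart libraries and from 20316 to 22793 after IH. As the groups did not overlap, this covariate cannot be told apart from treatment in the heart. The share of all heart genes that passed with it is not given.

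Heart Vegfa had 46.6 to 196 TPM (median 91.1) in normoxia and 45.8 to 114 TPM (median 61.5) after IH. The groups overlapped, with 23 of 24 IH libraries below the normoxic median on TPM as deposited and all 24 on scaled values. The decrease (log2 change -0.73, SE 0.12, adjusted p = 7.6e-06) was present within each replicate number, at -0.88, -0.94 and -0.35, and on TPM as deposited (-0.61). With the covariate, whose values do not overlap between the heart groups, it was -1.12 (adjusted p = 0.0017). Vegfb went from 287.5 ± 47.9 to 251 ± 16.4 TPM (log2 change -0.30, SE 0.11, adjusted p = 0.017), with -0.18 on TPM as deposited. Without replicate 1 or without replicate 2, Vegfb did not pass (-0.25 and -0.31). The SD of both ligands was larger in normoxia.

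All 5 receptors and co-receptors had a higher mean in the heart after IH at each of the 8 time points. Flt1 had 11.6 to 37.1 TPM (median 19.6) in normoxia and 21.8 to 46.0 TPM (median 31.6) after IH, with all 24 IH libraries above the normoxic median (log2 change 0.49, SE 0.099, adjusted p = 9e-05). Kdr rose from 30.2 ± 12.5 to 43.7 ± 13.3 TPM (log2 change 0.46, SE 0.14, adjusted p = 0.0057). Flt4 rose from 3.35 ± 1.07 to 5.25 ± 1.26 TPM, and 16 of 24 IH libraries lay above the highest normoxic one on scaled values (log2 change 0.49, SE 0.093, adjusted p = 4.5e-05). For Nrp1 the means were 25.6 ± 9.75 and 39.8 ± 9.39 TPM (log2 change 0.56, SE 0.10, adjusted p = 3.2e-05), for Nrp2 7.01 ± 2.58 and 9.67 ± 2.77 TPM (log2 change 0.34, SE 0.11, adjusted p = 0.01), and for Vegfc 3.85 ± 0.951 and 5.24 ± 0.939 TPM (log2 change 0.30, SE 0.093, adjusted p = 0.0075). Within replicate numbers 1, 2 and 3 the Kdr change was 0.53, 0.26 and 0.61 and the Nrp1 change 0.75, 0.39 and 0.57, all of 1 sign. Leaving out replicate 1 ended the calls of Kdr (0.43) and Nrp2 (0.24), and leaving out replicate 2 that of Vegfc (0.32). The ratio of Vegfa to Kdr within a library was 3.70 ± 1.24 in normoxia and 1.58 ± 0.466 after IH, with overlapping ranges. Vegfd and Pgf, at 0.12 and 0.12, did not pass, but did on TPM as deposited (0.22 and 0.24).

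In the heart 6 of the 15 pan-endothelial markers were higher and 1 lower (median 0.20 against 0.037 for all genes), against 11 higher and 0 lower on TPM as deposited, such as Pecam1 (CD31, 62.7 ± 14.2 to 94.6 ± 13.9 TPM, log2 change 0.49). The summed level of the 15 ran from 358 to 1029 (median 644) TPM in normoxia and from 607 to 939.5 (median 783) TPM after IH, and its part in the receptor changes was not tested. Relative to these markers, Nrp1 was at -0.32 ± 0.37 and 0.023 ± 0.26 on the log2 scale, and Kdr at -0.11 ± 0.35 and 0.13 ± 0.34. All 4 angiopoietin and TIE genes tested were higher, among them Angpt2 (1.49 ± 0.502 to 2.32 ± 0.559 TPM, log2 change 0.42), a destabilising ligand of Tek. Of 9 semaphorins and plexins tested 8 were higher, led by Sema3g, an endothelial semaphorin that binds neuropilins (5.97 ± 1.85 to 10.1 ± 1.80 TPM, log2 change 0.63). Of 9 VEGF-responsive genes 5 were higher, such as Unc5b, a netrin receptor (5.44 ± 1.99 to 8.13 ± 2.20 TPM, log2 change 0.45), and of the 22 signalling genes 8 were, such as Ptprb, the vascular phosphatase VE-PTP (14.6 ± 4.85 to 22.6 ± 5.26 TPM, log2 change 0.53). All 5 fibroblast markers and 4 of 6 pericyte and smooth muscle markers were higher, while 1 of 5 cardiomyocyte markers was. Of the HIF targets 4 of 10 were higher and 1 was lower. On TPM as deposited 8 HIF targets were higher and 0 lower, and 13 signalling genes were higher. The median change of all genes was 0.15 on that scale, against 0.037 on scaled values, and the share of all genes that passed on it is not given.

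**Figure D3:**
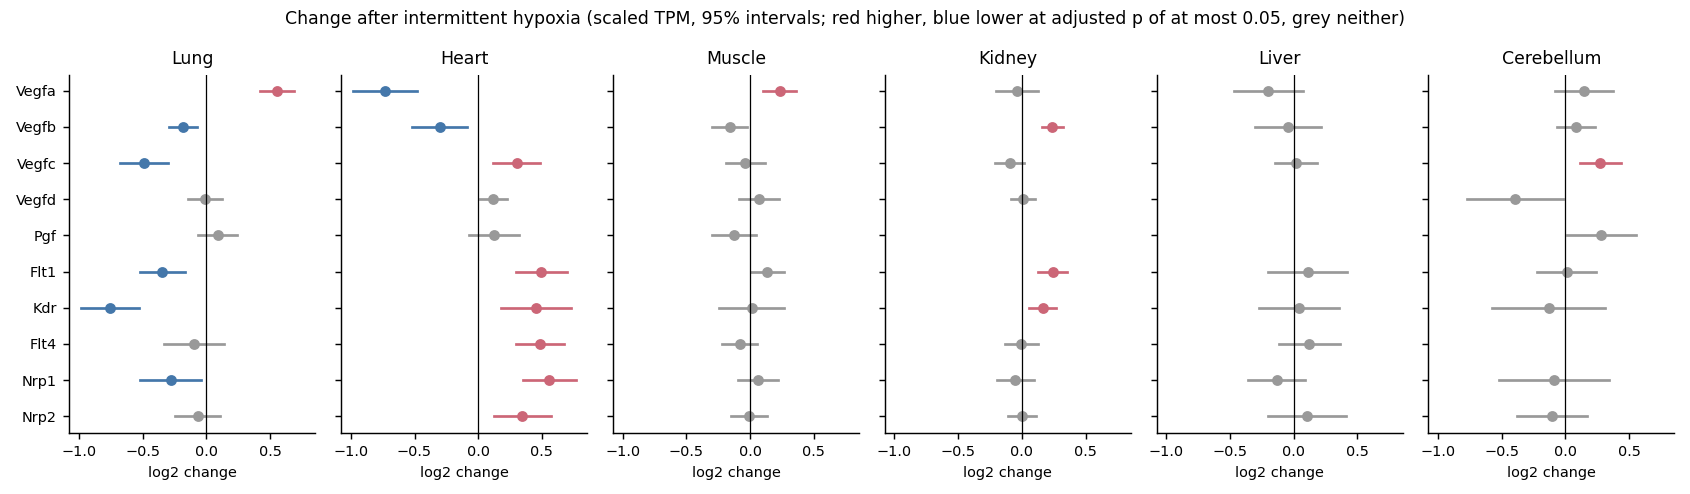
Log2 change of each VEGF gene after IH on scaled TPM in 6 tissues, with 95% confidence intervals over 48 libraries per tissue; red passed as higher and blue as lower at an adjusted p of 0.05, grey passed neither, and members with a mean under 1 TPM are left out. On this scale Vegfa is higher and Kdr lower in the lung, and Vegfa is lower and Kdr higher in the heart. With the count of detected genes as a covariate both Kdr changes take the other sign and do not pass.

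Across muscle, kidney, liver and cerebellum, 5 changes in the family passed. The share of all genes that passed is given with each tissue. In muscle Vegfa rose from 108 ± 18.7 to 137 ± 27.8 TPM (log2 change 0.23, SE 0.064, adjusted p = 0.012), 1 of 10 members where 10.4% of all genes passed, and its values by replicate number were 0.13, 0.37 and 0.21. Leaving out replicate 2 or replicate 3 ended that call, with 0.16 and 0.25. Of 7 regulators of VEGF expression tested in muscle 1 passed, a share near that of all genes, namely Ppargc1a, which encodes the coactivator PGC-1 alpha (4.87 ± 1.08 to 6.36 ± 1.13 TPM, log2 change 0.27). None of the 15 pan-endothelial markers passed in muscle.

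Kidney Vegfb rose from 50.9 ± 5.90 to 58.7 ± 9.12 TPM (log2 change 0.24, SE 0.041, adjusted p = 3.3e-05), within each replicate number (0.31, 0.17 and 0.22) and on TPM as deposited (0.20). Flt1 (log2 change 0.24, SE 0.057, adjusted p = 0.0018) and Kdr (log2 change 0.16, SE 0.053, adjusted p = 0.023) passed too, 3 of 9 members tested against 19.8% of all genes, and neither of these receptors passed on TPM as deposited or without replicate 3. 4 of 15 pan-endothelial markers and all 5 podocyte markers were higher in the kidney, and their part in the kidney changes was not tested. Vegfa, the podocyte ligand, was at 95.5 ± 34.6 and 88.3 ± 21.8 TPM and did not pass (log2 change -0.039, SE 0.083, adjusted p = 0.77). With the count of detected genes as a covariate, kidney Vegfa passed as lower in limma (-0.19, adjusted p = 0.040). Kidney Vegfb and Flt1 still passed with it, while Kdr did not (0.11, adjusted p = 0.12).

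Cerebellar Vegfc had 2.48 ± 0.509 TPM in normoxia and 3.08 ± 0.642 TPM after IH (log2 change 0.27, SE 0.079, adjusted p = 0.015), the only member of 9 to pass where 15% of all genes did. Leaving out replicate 1 or replicate 2 ended the call, at 0.22 and 0.24, as did the count of detected genes as a covariate (0.21, adjusted p = 0.073). None of the 8 members tested passed in the liver with limma, and 0 did so at an unadjusted p of 0.05, whereas 24.2% of all genes passed there. Liver Vegfa was at 68.3 ± 23.5 and 56.7 ± 23.4 TPM (log2 change -0.20, SE 0.13, adjusted p = 0.28), and 5 of 15 pan-endothelial markers were higher, such as Pecam1 (5.57 ± 1.79 to 7.89 ± 5.16 TPM, log2 change 0.53). The sum of the 15 markers ran up to 136 TPM in normoxic and up to 267 TPM in IH liver libraries. Without the liver library that held cardiomyocyte markers, Vegfb passed as lower, at -0.16. The endothelial markers were not fitted without that library. No member passed at 1.5-fold in these 4 tissues, in which 0.374% (muscle), 0.783% (kidney), 3.65% (liver) and 2.64% (cerebellum) of all genes did.

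**Figure D4:**
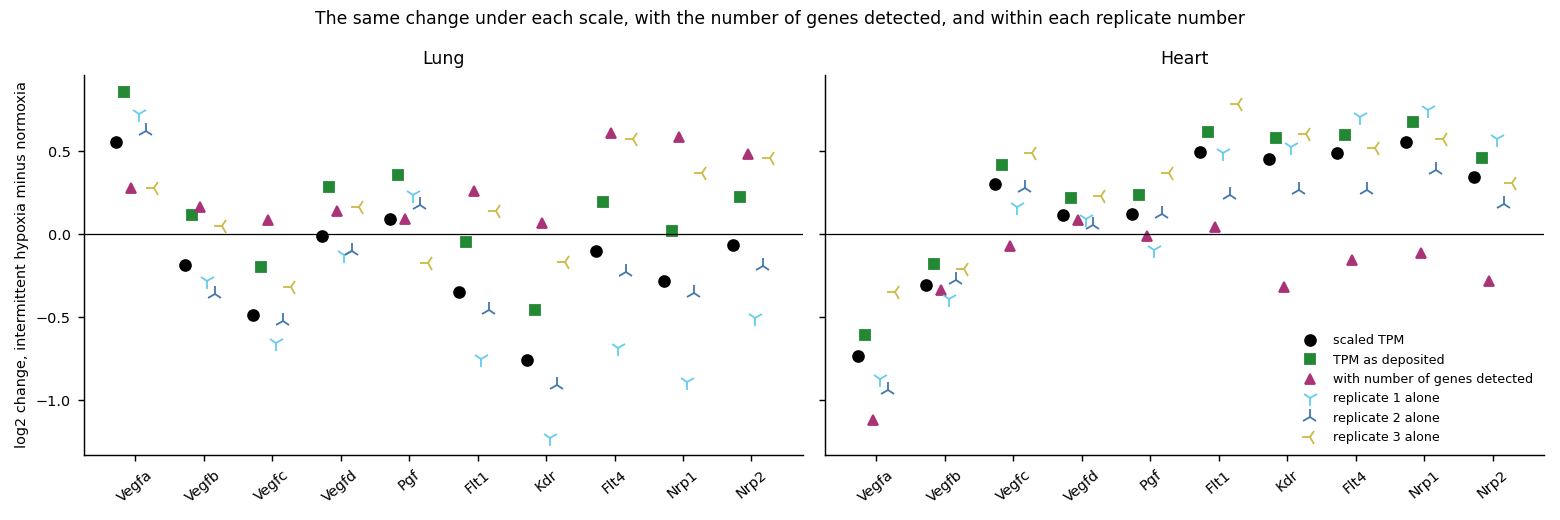
Log2 change of each VEGF gene in the lung and heart on scaled TPM (black), TPM as deposited (green), scaled TPM with the count of detected genes as a covariate (purple), and within each replicate number alone (3 further symbols). Vegfa keeps its sign under all 6 in both tissues, while the other 9 lung members and heart Kdr, Flt4, Nrp1, Nrp2, Vegfc and Pgf take either sign.

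The change in the lung was set against the change in each other tissue by an interaction test, for the 7 members with at least 1 TPM on average in every tissue. Here TPM was scaled over all libraries together, so the differences are not exactly those between the changes given above. Of 35 comparisons, 23 passed, 19 of them more downward in the lung, against 56.4% of all comparisons over genes. Over all genes the median difference was -0.18, and 20787 of the 27859 comparisons that passed were more downward in the lung. Vegfa changed more upward in the lung than in the heart (difference of log2 changes 1.21, SE 0.14), liver (0.67), kidney (0.53) and cerebellum (0.35). From muscle its difference was 0.28 (SE 0.14, adjusted p = 0.087), which did not pass. Kdr, Flt1 and Vegfc changed more downward in the lung than in each of the other 5 tissues, with Kdr differences from -1.29 (heart) to -0.68 (cerebellum). For Nrp1 and Nrp2 only the comparison with the heart passed, at -0.92 and -0.49. Of the 23, the comparisons of Vegfa with the heart, Kdr with the kidney and Vegfc with the cerebellum passed under each other setting in which they were tested, and each of the other 20 lost its call under at least 1. Flt1 against the cerebellum reached -0.045, Kdr against the cerebellum -0.20, Vegfc against the kidney -0.072 and Nrp2 against the heart 0.30. The Vegfa differences from the heart ranged from 1.03 to 1.51 over the 11 other settings.

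The count of members that cycled is to be read against the share of all genes in the same tissue. Dbp, a direct clock output, had its fitted peak between 8.09 and 10.6 h on the labels' clock in the 12 groups. This sets the time axis, although in the normoxic cerebellum Dbp did not pass the rhythm test (adjusted p = 0.097). In normoxia 4 of the 59 pairs of member and tissue tested passed the 24-hour rhythm test at an adjusted p of 0.05. They were Kdr in muscle (peak at 1.7 h, peak-to-trough 1.80-fold, adjusted p = 0.021), Vegfd in the lung (peak at 11.2 h, peak-to-trough 1.39-fold, adjusted p = 0.016), and Vegfc (peak at 23.1 h, peak-to-trough 1.27-fold, adjusted p = 0.027) and Nrp2 (peak at 3.6 h, peak-to-trough 1.33-fold, adjusted p = 0.023) in the kidney. Rhythmic genes made up 5.38% of all genes in normoxic muscle, 6.80% in the lung, 18.6% in the kidney, 14.4% in the liver, 0.558% in the heart and 0% in the cerebellum.

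After IH 5 pairs passed, namely Kdr in muscle (peak at 0.9 h, peak-to-trough 2.04-fold, adjusted p = 0.00049) and heart (peak at 0.9 h, peak-to-trough 1.79-fold, adjusted p = 0.005), Vegfc (peak at 22.9 h, peak-to-trough 1.31-fold, adjusted p = 0.021) and Flt1 (peak at 17.2 h, peak-to-trough 1.25-fold, adjusted p = 0.047) in the kidney, and Pgf in muscle (peak at 6.7 h, peak-to-trough 1.42-fold, adjusted p = 0.046). The shares of all genes after IH were 7.43% in muscle, 3.45% in the heart, 5.38% in the kidney, 3.37% in the lung, 2.33% in the liver and 0.00936% in the cerebellum. In muscle after IH, Kdr ran from 36.9 ± 2.71 TPM at 1:30 to 14.7 ± 3.81 TPM at 10:30 (n = 3 each). In the heart after IH it ran from 57.8 ± 10.0 TPM at 1:30 to 30.7 ± 8.48 TPM at 10:30 (n = 3 each). Normoxic heart Kdr had its lowest mean at 13:30, 18.2 ± 5.73 TPM, and did not pass (adjusted p = 0.62). On TPM as deposited 0 of the 4 normoxic pairs passed, and after IH only Kdr in muscle did. A rank test (JTK) kept Kdr in muscle and heart and Vegfc in the kidney after IH, and Vegfd in the lung and Vegfc and Nrp2 in the kidney in normoxia. In this fit Vegfa passed in no tissue under either treatment, and its lowest adjusted p, in normoxic liver, was 0.09. The difference of rhythm between treatments, tested with limma as an interaction, passed for 0 of the 59 pairs (1 at an unadjusted p of 0.05) and for 0% of all genes, so that a rhythm passed in 1 treatment and not in the other is not shown to differ.

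**Figure D5:**
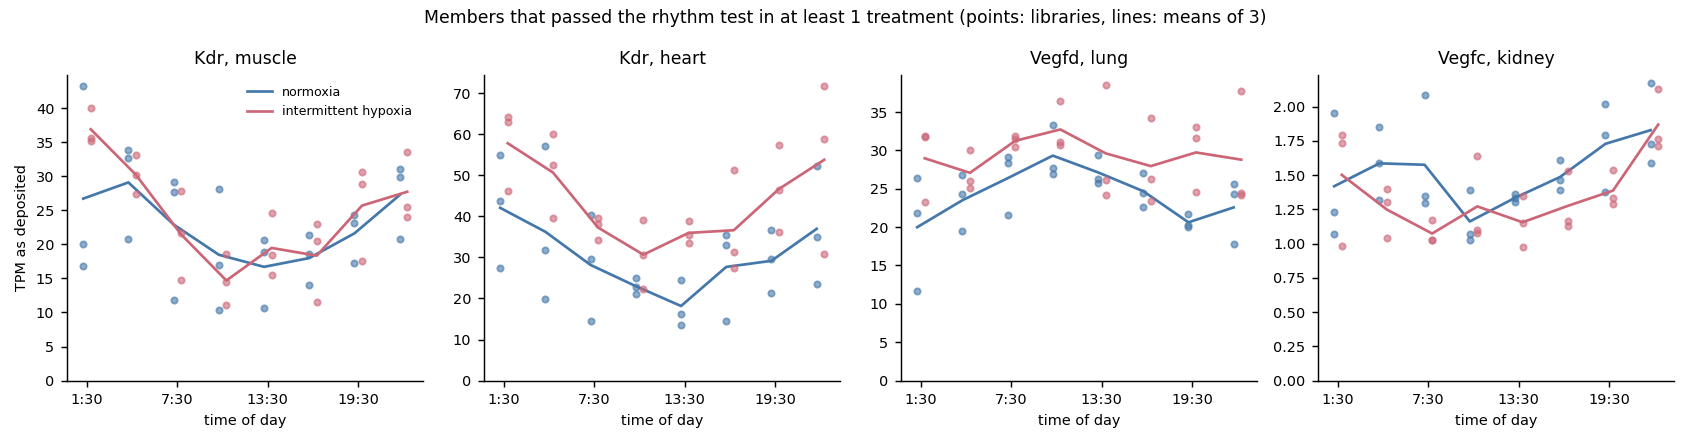
TPM as deposited against the time of day for Kdr in muscle and heart, Vegfd in the lung and Vegfc in the kidney, with each library as a point, the mean of 3 as a line, normoxia in blue and IH in red. Kdr is high around 1:30 and low around 10:30 to 13:30 in muscle and heart.

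As a description of likeness, the 7 members expressed in every tissue, which leaves out Vegfd, Pgf and Flt4, were compared with 9876 such genes over 96 means of tissue, treatment and time point, after the mean of each tissue was subtracted. The means of 1 tissue share their libraries' scale, so no p is given. Kdr was most like Cdh5 (Pearson r = 0.92), Cd93 (0.89) and Elk3 (0.85). Nrp1 was most like Cdh5 (0.88), Antxr2 (0.87) and Col4a2 (0.86), and Nrp2 was most like Antxr2 (0.81), Nrp1 (0.81) and Kdr (0.79). For Flt1 the 3 were Gsn (0.83), Podxl (0.83) and Ehd2 (0.82). Ligands had lower values: Vegfa with Als2cl (0.77), Dot1l (0.76) and Mtcp1 (0.76), Vegfb with Card19 (0.70), Ybx3 (0.70) and Map1lc3a (0.70), and Vegfc with Prss23 (0.77), Smpd1 (0.74) and Plvap (0.74). Among Flt1, Kdr, Nrp1 and Nrp2 the values ran from 0.60 (Flt1 with Nrp2) to 0.83 (Kdr with Nrp1), while Vegfa had -0.19 with Kdr and -0.19 with Flt1.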

How the data were processed

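Poly(A) RNA libraries of 6 tissues were sequenced by the authors, who quantified reads with Kallisto against Ensembl transcripts of the mm10 genome and summed transcripts to genes. The deposited values are TPM per gene and library, which sum to 989211 to 999188 in a library. As TPM keeps no depth, the depth of each library is unknown here and no counting interval is given.

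TPM of a tissue was scaled by the median of ratios, taken as log2 with a pseudocount of 0.5, and tested with limma 3.58.1 in R 4.3.3 (intensity trend, Benjamini-Hochberg over all genes, adjusted p of 0.05). Change after IH used genes whose mean over the 48 libraries of a tissue reached 1 TPM and treatment as the only term. A 1.5-fold change was counted as a second rule. Rhythm used the cosine and sine of a 24-hour period over 24 libraries and genes reaching 1 TPM, and the difference of rhythm used their interaction with treatment. Levels in normoxia used 15 tissue contrasts, and the comparison of the lung with the other 5 tissues used an interaction over all libraries. In both of these fits TPM was scaled over all libraries of the fit together. Tests were 2-sided, and the fits were tested on simulated data. All p-values measure the spread between these libraries, whose mice are shared between tissues.

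Named genes were all members, at most 4 genes of each list with the largest change among those that passed, and the 3 genes most like each member. The members and the 22 gene lists were chosen with earlier results of these data known. Alternatives were TPM as deposited, other pseudocounts and filters, further terms, leaving out each replicate number or the library least like its tissue, and a rank test; their effect is given in the closing section. Tables and figures were made with Python 3.11.15, pandas 2.3.3, numpy 2.4.6 and matplotlib 3.10.9.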

Additional observations from a re-analysis of the deposited data

Results flagged for a closer look

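In 23 of 35 comparisons over 7 members, the change in the lung was unlike the change in another tissue by the interaction of treatment and tissue in limma at an adjusted p of 0.05. Of all comparisons over genes, 56.4% passed. Each value is the log2 change in the lung minus that in the other tissue, with TPM scaled over all libraries together. Vegfa was higher in the lung, by 1.21 against the heart, 0.67 against the liver, 0.53 against the kidney and 0.35 against the cerebellum. Kdr had differences of -1.29 (heart), -0.98 (kidney), -0.87 (liver), -0.81 (muscle) and -0.68 (cerebellum). Flt1 had -0.92 (heart), -0.65 (kidney), -0.53 (liver), -0.52 (muscle) and -0.41 (cerebellum). Vegfc had -0.85 (heart), -0.78 (cerebellum), -0.56 (liver), -0.47 (muscle) and -0.43 (kidney). Vegfb had -0.48 (kidney) and -0.32 (cerebellum), and against the heart Nrp1 had -0.92 and Nrp2 -0.49. The count of detected genes moved with treatment, upward in the lung and downward in the heart, where the groups did not overlap. With it as a covariate 9 comparisons passed, and the share over all genes under that setting is not given.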

How the results depend on the processing

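Of 56 single changes tested, pseudocounts of 0.1 and 1, no filter and time point as a further term left all 56 calls as they were, and a filter at 5 TPM left all 34 that remained. Among changes past the threshold with it or without it, the count of detected genes as a covariate turned lung Kdr (0.068), Flt1 (0.26), Flt4 (0.61), Nrp1 (0.59), Nrp2 (0.49), Vegfb (0.16) and Vegfc (0.088) and heart Kdr (-0.32), Flt4 (-0.15), Nrp1 (-0.11), Nrp2 (-0.28) and Vegfc (-0.069), left 1 heart call of 8 and gave 9 lung comparisons instead of 23; the cause was not tested. Among changes past the threshold on at least 1 of both scales, TPM as deposited turned lung Vegfb (0.11), Vegfd (0.29), Nrp1 (0.022) and Nrp2 (0.22), gave 3 calls instead of 5 in muscle, kidney, liver and cerebellum, 5 pairs past 1.5-fold instead of 2, 14 lung comparisons, and 0 rhythmic pairs in normoxia and 1 after IH. TPM on the linear scale gave 0 and 1 rhythmic pairs, and the rank test gave 3 after IH instead of 5. A filter at 5 TPM in every tissue left 6 lung comparisons, since fewer members remained.

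Leaving out each replicate number gave 3 to 9 calls in the lung, 5 to 8 in the heart, 3 to 6 in the other 4 tissues, 1 to 6 pairs past 1.5-fold, 0 to 1 rhythmic pairs in normoxia and 1 to 2 after IH, with fewer libraries; lung Nrp1 ran from -0.61 to 0.016, and 17 to 27 lung comparisons passed. Same-numbered libraries of both treatments did not deviate together in every pair, with a median correlation of their deviations between 0.0027 (lung) and 0.32 (liver) and single values down to -0.62, so the numbers were not taken as pairs. A block for each time point and replicate number gave 6 calls in the lung, 8 in the heart, 6 in the other 4 tissues and 23 lung comparisons. In the rhythm fits the block was the replicate number within 1 treatment, which the correlations between treatments above do not address. That block gave 10 rhythmic pairs in normoxia, Vegfa in the liver among them (adjusted p = 0.043), and 7 after IH. With no depth known, absence of a call does not show that a gene did not change.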
